A study of Mus musculus with 42 samples.

Results

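The cartilage and tendon genes Cnmd, Comp, Sox9, Acan, Thbs4, Tnmd, Scx, Chad, Matn2 and Runx2 were followed across cultured mouse synovial fibroblasts. They were taken by gene symbol, with Cnmd also sought under its older symbol Lect1. Of the 10 genes, 9 had a named probe set on the array, out of 18195 genes measured, and Runx2 was not analysed here. Sox9 had 3 probe sets, Scx and Matn2 had more than 1, and the other genes had 1 each, which gave 13 probe sets in all.

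Expression was measured on 42 arrays of fibroblasts grown from the joints of female BALB/c mice in which arthritis had been induced with proteoglycan (PG) in the adjuvant DDA. The mice were wild-type (15 arrays) or carried a deletion of the gene for TSG-6, Tnfaip6 (27 arrays), and both kinds had been immunised. Cells were freed from synovial tissue with pronase and collagenase and passaged no more than 6 times in medium with 10% serum. After a night in 0.5% serum they were treated for 12 h. The comparisons ask how the genotype, inflammatory stimuli and the TSG-6 protein with its ligand hyaluronan (HA) bear on the cells.

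The wild-type groups were untreated cells (5 arrays) and cells given TNFa, LPS, recombinant TSG6, HA, or TSG6 with HA (2 arrays each). The knockout groups were untreated cells (8 arrays) and cells given TNFa (4 arrays), LPS (4 arrays), TSG6 (3 arrays), HA (4 arrays) or TSG6 with HA (4 arrays). The doses per ml were 5 ng for TNFa and 200 ng for LPS, and 120 µg for TSG6 and 24 µg for HA whether alone or together. TNFa is a cytokine of inflamed joints, LPS is a bacterial activator of innate immunity, and TSG-6 is a secreted protein that binds hyaluronan, a matrix polysaccharide. The labels do not say which arrays came from separate animals or cultures, so p-values measure only the spread between these arrays.

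Values are log2 expression centred on each probe set's median over the 42 arrays. They show differences between arrays and hold no absolute level, so it could not be read from them whether a gene was expressed at all, nor could one gene's level be set against another's. Tnfaip6 itself was not lower in untreated knockout-labelled cells (difference 0.26 ± 0.16 SE on the log2 scale, adjusted p = 0.22), so it did not check the genotype labels. The cultures are therefore called knockout-labelled. Within each genotype the arrays fell into a pair of sets that no label names, found from probe sets of other genes. These sets, called a and b, held 8 and 7 wild-type arrays and 14 and 13 knockout-labelled arrays. The search kept only divisions in which every group had arrays in both sets, so that balance was fixed in advance. Of the probe sets that gave such a division, 32 of 32 in wild-type and 11 of 12 in knockout-labelled arrays gave this one. The signal of 3 control probe sets for 18S ribosomal RNA was high on 14 arrays, 5 wild-type and 9 knockout-labelled.

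SOX9 is the transcription factor that directs cells to the cartilage fate, and Acan (aggrecan), the proteoglycan that holds water in cartilage, is among its targets. Comp and Thbs4 are thrombospondins of cartilage and tendon matrix, Matn2 is a matrilin that links matrix fibres, and Chad is a small leucine-rich protein that cartilage cells attach to. Scx (scleraxis) is the transcription factor of the tendon lineage, and Tnmd (tenomodulin) is a tendon membrane protein that follows it in development. Cnmd (chondromodulin) is the cartilage relative of Tnmd and is known as an inhibitor of blood vessel growth.

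Promoter sequences are shown for Cnmd and Thbs4, which differed widely between the genotypes, and for Tnmd, the relative of Cnmd, which did not pass the test there. Each runs 5′ to 3′ on the gene's own strand from 250 bases before the transcription start to 50 bases after it, from RefSeq on GRCm38.p6. Capitals mark matches, on either strand, to the E-box letters CANNTG, which scleraxis and other helix-loop-helix factors can bind, or to ACAAT, a core of sites bound by SOX proteins. The Cnmd promoter lies on the minus strand at chr14:79662134-79662433, the Thbs4 promoter on the minus strand at chr13:92794769-92795068, and the Tnmd promoter on the plus strand at chrX:133850758-133851057.
Cnmd: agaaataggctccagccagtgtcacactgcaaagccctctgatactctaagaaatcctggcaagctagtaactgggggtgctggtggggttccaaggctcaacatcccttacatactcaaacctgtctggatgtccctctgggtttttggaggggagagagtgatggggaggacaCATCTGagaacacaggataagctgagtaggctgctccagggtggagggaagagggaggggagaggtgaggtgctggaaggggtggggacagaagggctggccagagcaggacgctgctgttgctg
Thbs4: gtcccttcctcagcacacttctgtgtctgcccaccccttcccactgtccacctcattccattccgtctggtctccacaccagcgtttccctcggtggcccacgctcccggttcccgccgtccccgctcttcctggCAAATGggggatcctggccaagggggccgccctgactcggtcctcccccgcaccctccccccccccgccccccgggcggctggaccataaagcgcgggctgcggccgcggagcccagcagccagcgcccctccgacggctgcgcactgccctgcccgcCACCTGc
Tnmd: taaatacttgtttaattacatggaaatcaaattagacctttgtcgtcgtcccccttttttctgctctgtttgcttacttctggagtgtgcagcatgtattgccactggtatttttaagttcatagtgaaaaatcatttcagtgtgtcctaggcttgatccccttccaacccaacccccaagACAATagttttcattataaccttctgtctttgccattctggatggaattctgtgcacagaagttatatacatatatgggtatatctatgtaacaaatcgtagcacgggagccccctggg
The Cnmd window held 1 CANNTG match and 0 ACAAT matches. The Thbs4 window held 2 CANNTG matches and 0 ACAAT matches, and the Tnmd window held 0 CANNTG matches and 1 ACAAT match. Over 32851 promoter windows of the same length, 72.3% held CANNTG and 31.0% held ACAAT, and in the windows shown no match to one overlapped a match to the other. The Thbs4 window was 72.0% G and C, the Cnmd window 56.0% and the Tnmd window 40.0%. A match is a description of the letters only. Comp, Sox9, Scx and Matn2 had no entry in the table of promoters, and Acan and Chad are not shown because they hardly varied.

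In untreated cells, 5 of the 9 genes were higher in knockout-labelled than in wild-type cultures and 0 were lower: Cnmd, Comp, Thbs4, Sox9 and Scx (limma with Benjamini-Hochberg adjustment over all 18195 genes, threshold 0.05). Of all genes, 37.5% passed the same test, so the genotypes differed broadly. The median difference was 0.71 over the 9 genes and 0.03 over all genes, on the log2 scale. Acan, Chad, Matn2 and Tnmd did not pass.

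Cnmd had the widest gap of the 9 genes. Its centred values were -5.43, -5.13, -5.36, -5.24 and -4.11 on the untreated wild-type arrays, and ran from 0.21 through a median of 1.24 to 1.95 on the 8 untreated knockout-labelled arrays. The groups lay far apart with no overlap. The difference was 6.24 ± 0.38 (SE; 95% interval 5.46 to 7.01), or 75.4-fold, with adjusted p = 7.68e-16, and ranked 12 in size among the 18195 genes. Every knockout-labelled array under every treatment was above every wild-type array, with 3.71 between the nearest arrays.

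Comp, the pentameric cartilage thrombospondin, had untreated wild-type values of -3.81, -3.20, -3.06, -4.80 and -4.75. Its untreated knockout-labelled values ran from 0.04 through 0.51 to 0.89. All of the knockout-labelled arrays were higher. The difference was 4.42 ± 0.36 (SE), 21.4-fold, with adjusted p = 1.78e-12 by limma.

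Thbs4, the related thrombospondin of tendon and muscle attachments, had untreated wild-type values of -3.15, -3.40, -3.12, -5.29 and -5.38. Its untreated knockout-labelled values ran from -0.99 through 0.21 to 1.59. Here too the groups did not overlap, although each was spread over more than 2 log2 units. The difference was 4.36 ± 0.62 (SE), 20.5-fold, with adjusted p = 3.26e-07 by limma.

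The transcription factors differed less. Sox9 values were -0.78, -0.84, -0.66, -0.51 and -0.47 on untreated wild-type arrays and ran from 0.42 through 0.83 to 1.70 on knockout-labelled arrays, with no overlap. The Sox9 difference was 1.56 ± 0.15 (SE), 2.94-fold, with adjusted p = 5.13e-11 by limma. A second Sox9 probe set gave 1.53 and the third, which varied little, gave 0.38, and both passed when all probe sets were tested. Scx values were -0.45, -0.54, -0.36, -0.52 and -0.74 on wild-type arrays and ran from -0.14 through 0.05 to 0.93 on knockout-labelled arrays. The groups did not overlap, the difference was 0.71 ± 0.16 (SE), 1.64-fold, and adjusted p was 0.00032 by limma. With quantile normalization between arrays, applied to the centred values, the Scx difference was 0.62 and no longer passed (adjusted p = 0.0565 by limma).

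Acan and Chad hardly moved on any array. Acan spanned 0.82 log2 units over all 42 arrays and Chad 0.98. The genotype difference in untreated cells was 0.06 (95% interval -0.17 to 0.29) for Acan, -0.02 (-0.21 to 0.17) for Chad and 0.12 (-0.30 to 0.55) for Matn2. Since the values hold no level, a gene that is steady and a probe set that is dim cannot be told apart here.

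**Figure D1:**
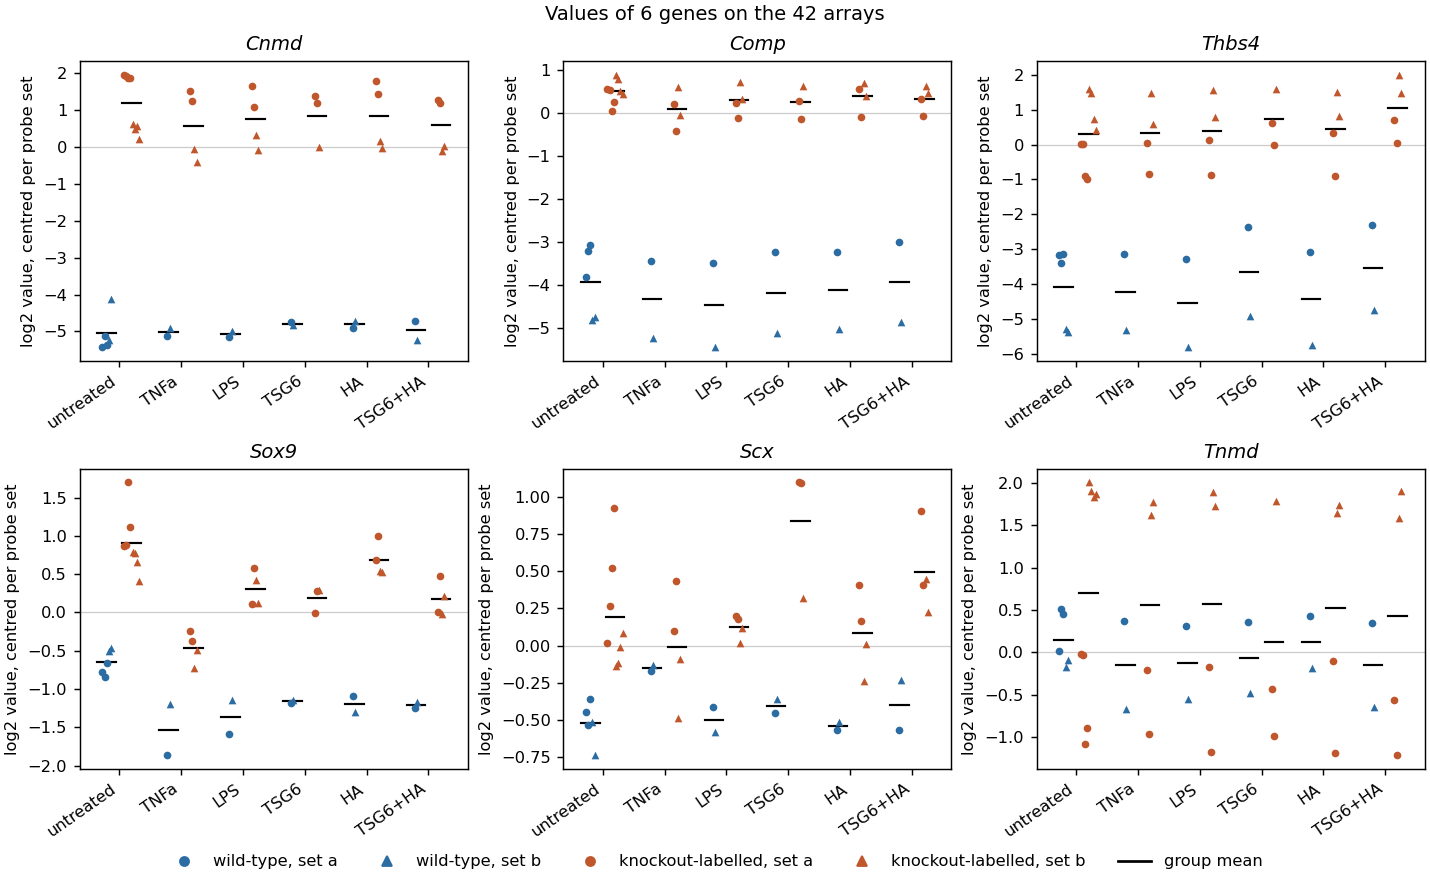
Centred log2 values of 6 genes on the 42 arrays, by treatment; blue points are wild-type and orange points knockout-labelled arrays, circles are set a, triangles set b, and black lines are group means. Cnmd, Comp and Thbs4 have no overlap between the genotypes under any treatment, Sox9 drops after TNFa in both, and Tnmd splits by set.

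The genotype gap was kept under treatment. Cnmd was 5.55 to 6.24 higher in knockout-labelled cells over the 6 conditions, Comp 4.25 to 4.75, Thbs4 4.36 to 4.95 and Sox9 1.07 to 1.88, and each of these passed the test in each condition. Members called numbered 4 of 9 under TNFa (23.5% of all genes), 4 of 9 under LPS (24.0%), 5 of 9 under TSG6 (18.9%), 4 of 9 under HA (23.3%) and 5 of 9 under TSG6 with HA (21.6%). All were higher in knockout-labelled cells. In this fit Scx made the difference between these counts. It was 1.25 ± 0.25 (SE) higher under TSG6 (adjusted p = 0.000287 by limma) and 0.90 ± 0.24 under TSG6 with HA (adjusted p = 0.00498). Under TNFa the Scx difference was 0.14 ± 0.24 (adjusted p = 0.765), and under LPS and HA it was 0.63 in each (adjusted p = 0.0522 and 0.0534). Scx did pass under LPS with the culture sets as a random block (adjusted p = 0.0291, 23.4% of all genes), with the mean of its probe sets (0.55, adjusted p = 0.00476) and with only the groups compared (adjusted p = 0.00899), and under HA with the set block (adjusted p = 0.0297, 22.7% of all genes) and the mean of probe sets (0.47, adjusted p = 0.0184), which made the counts 5 of 9.

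With quantile normalization and under TNFa, Thbs4 (2.87, adjusted p = 0.0719 by limma) and Sox9 (0.55, adjusted p = 0.356) did not pass. Leaving out the first wild-type TNFa array took Sox9 under TNFa to 0.74 (adjusted p = 0.0583). Leaving out the second wild-type array of TSG6, or of TSG6 with HA, took Thbs4 to 3.09 (adjusted p = 0.107) and 3.37 (adjusted p = 0.0601). Without the arrays of high 18S signal Thbs4 under TSG6 with HA was at 3.66 (adjusted p = 0.0658). Leaving out the first wild-type array of TSG6 with HA took Scx to 0.73 (adjusted p = 0.0979).

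**Figure D2:**
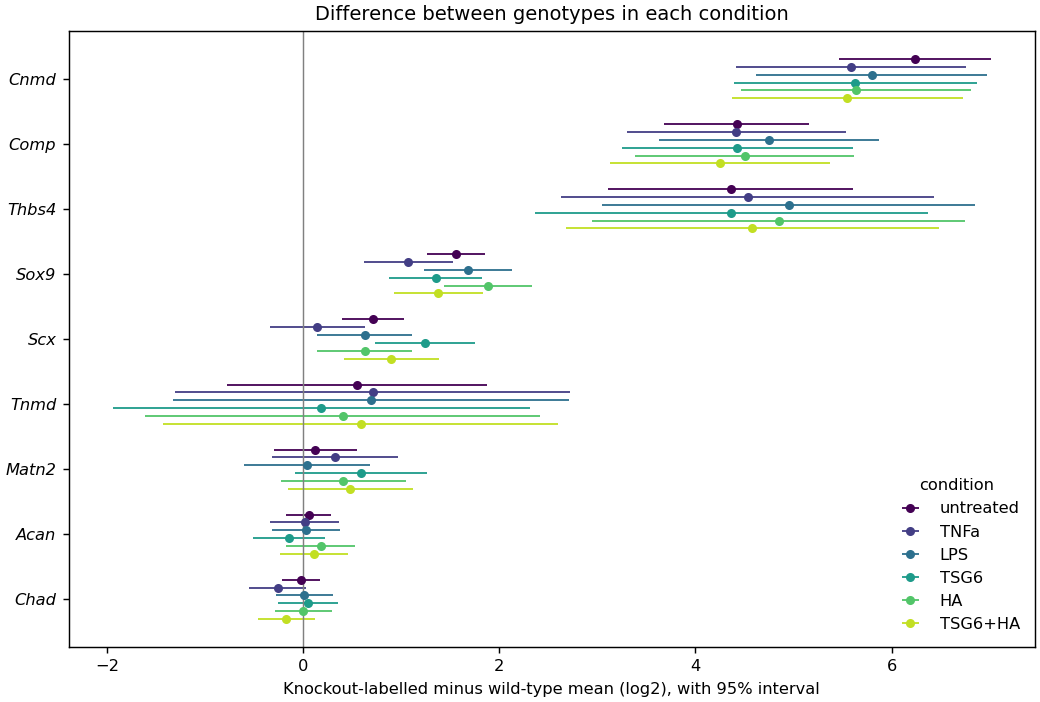
Difference between knockout-labelled and wild-type means (log2, horizontal axis) for the 9 genes in each of 6 conditions; points are limma estimates and bars 95% intervals. Cnmd, Comp, Thbs4 and Sox9 lie to the right of 0 in all 6 conditions, whereas the intervals of Tnmd, Acan, Chad and Matn2 reach 0.

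The sets were sought within each genotype and the labels do not name cultures, so genotype and culture cannot be told apart. Over all treatments, Sox9 and Scx overlapped between the genotypes: the lowest knockout-labelled array was below the highest wild-type array by 0.26 for Sox9 and 0.35 for Scx, whereas it was above by 2.58 for Comp and 1.32 for Thbs4. Between set means, for Cnmd the lower knockout-labelled set was 4.98 above the higher wild-type set, for Comp 3.46, for Thbs4 2.79, for Sox9 1.26 and for Scx 0.45. For Tnmd the lower knockout-labelled set was below the higher wild-type set (-0.995). With the sets as a random block (duplicateCorrelation, which took 1 correlation of 0.163 for all genes), the same 5 genes passed in untreated cells (32.9% of all genes). Yet the sets held 84.8% of the sum of squares of Cnmd among knockout-labelled arrays and 92.8% of that of Comp among wild-type arrays. For such genes this fit allows little for the sets, and passing it is no check on culture.

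Some markers of other cell types differed between the genotypes in untreated cells, where 37.5% of all genes passed. The calls among chondrocyte and among macrophage markers were fewer than that share. Of 8 endothelial markers, 7 were lower in knockout-labelled cells, among them Tie1 (-5.42), Cldn5 (-3.69), Tek (-3.51) and Kdr (-1.84). The mean centred value of the 8 ran from 2.75 to 3.65 on wild-type arrays and from -1.53 to 0.27 on knockout-labelled arrays. Of 12 chondrocyte markers, 3 were higher (Cnmd, Col2a1 by 1.44 and Hapln1 by 1.64) and 0 lower, and the mean of the 10 that are not among the genes described here ran from -0.41 to -0.12 in wild-type and from -0.07 to 0.43 in knockout-labelled cells. Of 7 tendon cell markers, which include some of the genes described here, 6 were higher, among them Mkx, Fmod, Thbs4 and Kera (2.42). Of 8 macrophage markers 2 were lower, Cd14 (-1.28) and Lyz2 (-1.58). Of 10 markers of synovial fibroblasts 3 were higher and 3 lower: Prg4 (lubricin) was 4.41 higher, while Thy1 (-1.91) and the collagen genes Col1a1 (-1.49) and Col1a2 (-0.86) were lower. Of 5 Schwann cell markers 3 were measured, and only S100b, also a cartilage marker, was called (2.67 higher). The mean values of the pericyte, skeletal muscle, adipocyte and epithelial marker lists overlapped between the genotypes. In those lists Mcam (-0.98), Acta1 (-0.46), Fabp4 (-2.03) and Adipoq (0.35) were called. Which defining markers were absent could not be read from centred values, and in bulk RNA fewer cells of a type and less RNA per cell cannot be told apart. The part of these markers in the genotype differences was not tested.

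Sox9 was called in 5 of the 10 comparisons of treated with untreated cells, and Scx, the only other gene called, in 1. In knockout-labelled cells TNFa lowered Sox9 from a median of 0.83 to values of -0.24, -0.37, -0.73 and -0.49. All 4 treated arrays were below all 8 untreated arrays. The difference was -1.36 ± 0.16 (SE; 95% interval -1.68 to -1.04), with adjusted p = 3.71e-08 by limma. It was the only member of 9 called, against 14.0% of all genes. Within the sets the Sox9 difference was -1.45 in set a and -1.27 in set b.

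In wild-type cells TNFa took Sox9 to -1.86 and -1.20, below all 5 untreated arrays. The difference was -0.88 ± 0.22 (SE), with adjusted p = 0.0142 by limma, and Sox9 was again the only member of 9 called (2.56% of all genes). Within the sets it was -1.10 and -0.71. This call was lost when the fit held only the groups compared (adjusted p = 0.0668), with quantile normalization (-0.51, adjusted p = 1) and without the first wild-type TNFa array (-0.54, adjusted p = 0.401). The difference between the genotypes' Sox9 responses to TNFa did not pass its own test.

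LPS gave Sox9 values of 0.11, 0.58, 0.42 and 0.13 in knockout-labelled cells, which overlapped the untreated arrays. The difference was -0.59 ± 0.16 (SE), with adjusted p = 0.0391 by limma, the only call among the 9 (1.79% of all genes). It did not pass without the arrays of high 18S signal (-0.76, adjusted p = 0.0903), with the mean of the probe sets (-0.34, adjusted p = 0.117), with only the groups compared (adjusted p = 0.199) or without any of LPS arrays 1, 3 and 4 or untreated arrays 2, 3 and 4 (adjusted p = 0.0504 to 0.201). In wild-type cells LPS gave -1.59 and -1.15, a difference of -0.72 ± 0.22 (SE) that did not pass (adjusted p = 0.122 by limma), and 0 of the 9 genes passed (1.19% of all genes). With the sets as a fixed block within each genotype, as in all blocked treatment comparisons given here, the wild-type difference was -0.74 and passed (adjusted p = 0.0182, 2.87% of all genes).

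TSG6 lowered Sox9 and raised Scx in knockout-labelled cells, 2 calls among the 9 genes (4.75% of all genes). Sox9 values were -0.01, 0.28 and 0.29, all below the untreated arrays, with a difference of -0.71 ± 0.17 (SE) and adjusted p = 0.00984 by limma. It was not called without the first TSG6 array (-0.62, adjusted p = 0.13) or with only the groups compared (adjusted p = 0.0816). Scx values were 1.10, 1.09 and 0.32 against 0.93 and lower in untreated cells, so the groups overlapped. The Scx difference was 0.64 ± 0.19 (SE), with adjusted p = 0.0361 by limma. Within the sets it was 0.66 and 0.37.

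The Scx call rested on few arrays. It did not pass without TSG6 array 1 (0.51, adjusted p = 0.293), without TSG6 array 2 (0.52, adjusted p = 0.272), or without any of untreated arrays 1, 5, 6, 7 and 8 (adjusted p = 0.0532 to 0.0658). It also did not pass without the arrays of high 18S signal (0.46, adjusted p = 0.476) or with only the groups compared (adjusted p = 0.171). The second Scx probe set gave 0.12 (adjusted p = 0.72 over all probe sets). With the sets as a block the difference was 0.57 (adjusted p = 0.00536, 8.43% of all genes).

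TSG6 with HA lowered Sox9 in knockout-labelled cells to 0.01, 0.47, -0.02 and 0.22. Of these arrays 3 were below all untreated arrays. The difference was -0.73 ± 0.16 (SE), with adjusted p = 0.00158 by limma, the only call among the 9 (9.91% of all genes), and within the sets it was -0.90 and -0.56. HA alone gave 0.69, 1.00, 0.55 and 0.53, a difference of -0.21 ± 0.16 (SE; adjusted p = 0.917). After HA, 0 of the 9 genes passed in knockout-labelled cells (0.643% of all genes), and 0 had an unadjusted p under 0.05.

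In wild-type cells Sox9 was at -1.19 and -1.14 after TSG6, at -1.09 and -1.30 after HA, and at -1.25 and -1.17 after TSG6 with HA. All of these arrays were below the 5 untreated arrays. The differences were -0.51, -0.54 and -0.55, each ± 0.22 (SE), and did not pass (adjusted p = 0.977, 1 and 0.378 by limma). None of the 9 genes passed after TSG6 (0.429% of all genes), HA (0.132%) or TSG6 with HA (0.802%). At an unadjusted p under 0.05, Sox9 was the only gene of the 9 after LPS, TSG6 and HA, and Sox9 and Chad were the 2 after TSG6 with HA. Within both wild-type and both knockout-labelled sets, Sox9 was below untreated cells after all 5 treatments, by the probe set used. The other Sox9 probe sets fell less clearly in wild-type cells, and the third did not fall after HA or TSG6. After HA the mean of the second was -0.60 against -0.54 untreated, and that of the third -0.149 against -0.154. After TSG6 the second was at -0.99 and the third at -0.128, and after TSG6 with HA they were at -0.99 and -0.226.

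Comp, Matn2, Acan and Chad did not respond past the threshold. Comp differed from untreated cells by -0.54 (LPS) to 0.001 (TSG6 with HA) in wild-type and by -0.41 (TNFa) to -0.12 (HA) in knockout-labelled cells. Matn2 differed by -0.43 to 0.09 and by -0.07 to 0.18, Acan by -0.10 to 0.11 and by -0.11 to 0.11, and Chad by -0.003 to 0.33 and by -0.09 to 0.18. None of these passed in any treatment.

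**Figure D3:**
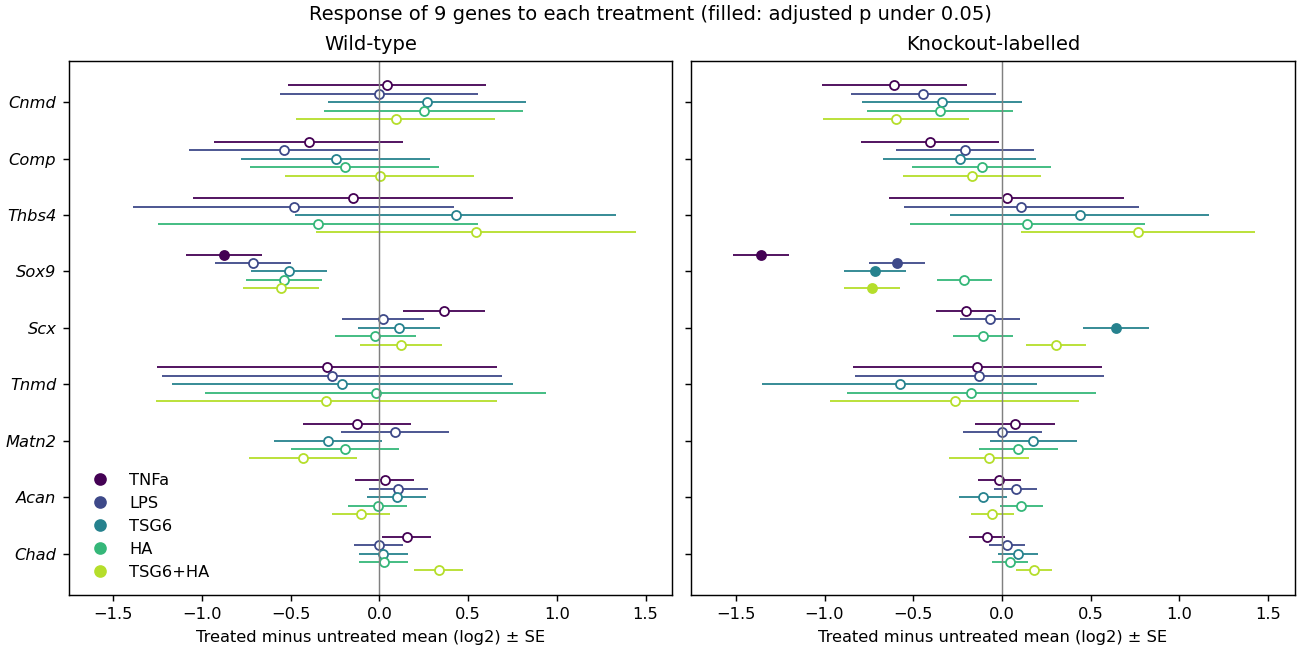
Treated minus untreated means (log2) of the 9 genes in wild-type (left) and knockout-labelled cells (right); bars are SE from limma and filled points passed at an adjusted p under 0.05. Sox9 lies to the left of 0 for every treatment, and the only filled point to the right is Scx after TSG6.

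Among knockout-labelled arrays the sets held 84.8% of the sum of squares of Cnmd and 64.2% of that of Thbs4, and the treatments 9.91% and 9.20%. In knockout-labelled set a, Cnmd was at 1.95, 1.92, 1.86 and 1.85 in untreated cells and between 1.08 and 1.77 on all 10 treated arrays. In set b it was at 0.62, 0.49, 0.56 and 0.21 untreated and between -0.40 and 0.32 treated. The treated arrays of set a were all below the untreated ones, and those of set b overlapped only the lowest untreated array.

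Over all arrays the Cnmd differences in knockout-labelled cells were -0.61 after TNFa, -0.44 after LPS, -0.34 after TSG6, -0.35 after HA and -0.60 after TSG6 with HA, none of which passed (adjusted p = 0.397 to 0.959 by limma). With the sets as a block, Cnmd fell after TNFa (-0.61 ± 0.15 SE, adjusted p = 0.00326, 19.0% of all genes), TSG6 (-0.57 ± 0.17, adjusted p = 0.0269, 8.43% of all genes) and TSG6 with HA (-0.60 ± 0.15, adjusted p = 0.00526, 14.5% of all genes). After LPS and HA it did not pass (adjusted p = 0.11 and 0.407, with 3.95% and 1.68% of all genes called). In wild-type cells no Cnmd difference passed. In wild-type set a, with 1 array for each treatment, Cnmd was above the untreated mean by 0.17 (LPS) to 0.60 (TSG6 with HA). The treated arrays of wild-type set b, between -5.22 and -4.72, lay between its 2 untreated arrays (-5.24 on array 4 and -4.11 on array 5). A direction in set b therefore rests on which untreated array is taken.

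The Thbs4 means lay above untreated cells after TSG6, alone or with HA. Only TSG6 with HA in knockout-labelled cells passed, and only in a blocked fit. In knockout-labelled cells given TSG6 with HA its values were 0.70, 0.04, 2.00 and 1.48, a difference of 0.77 ± 0.66 (SE) that did not pass (adjusted p = 0.558 by limma). With the sets as a block it was 0.77 ± 0.25 and passed (adjusted p = 0.0342). After TSG6 alone the blocked difference was 0.68 ± 0.28 (adjusted p = 0.145), and in wild-type cells it was 0.67 ± 0.34 after TSG6 (adjusted p = 0.856, 1.18% of all genes) and 0.78 ± 0.34 after TSG6 with HA (adjusted p = 0.343, 2.45% of all genes). Within the sets Thbs4 was above untreated cells by 0.42 to 0.86 after TSG6 and by 0.60 to 0.92 after TSG6 with HA, in 4 of 4 sets each. In both wild-type sets, and in knockout-labelled set b after TSG6, this rests on 1 treated array. After TNFa, LPS and HA the within-set differences of Thbs4 ran from -0.48 to 0.18.

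**Figure D4:**
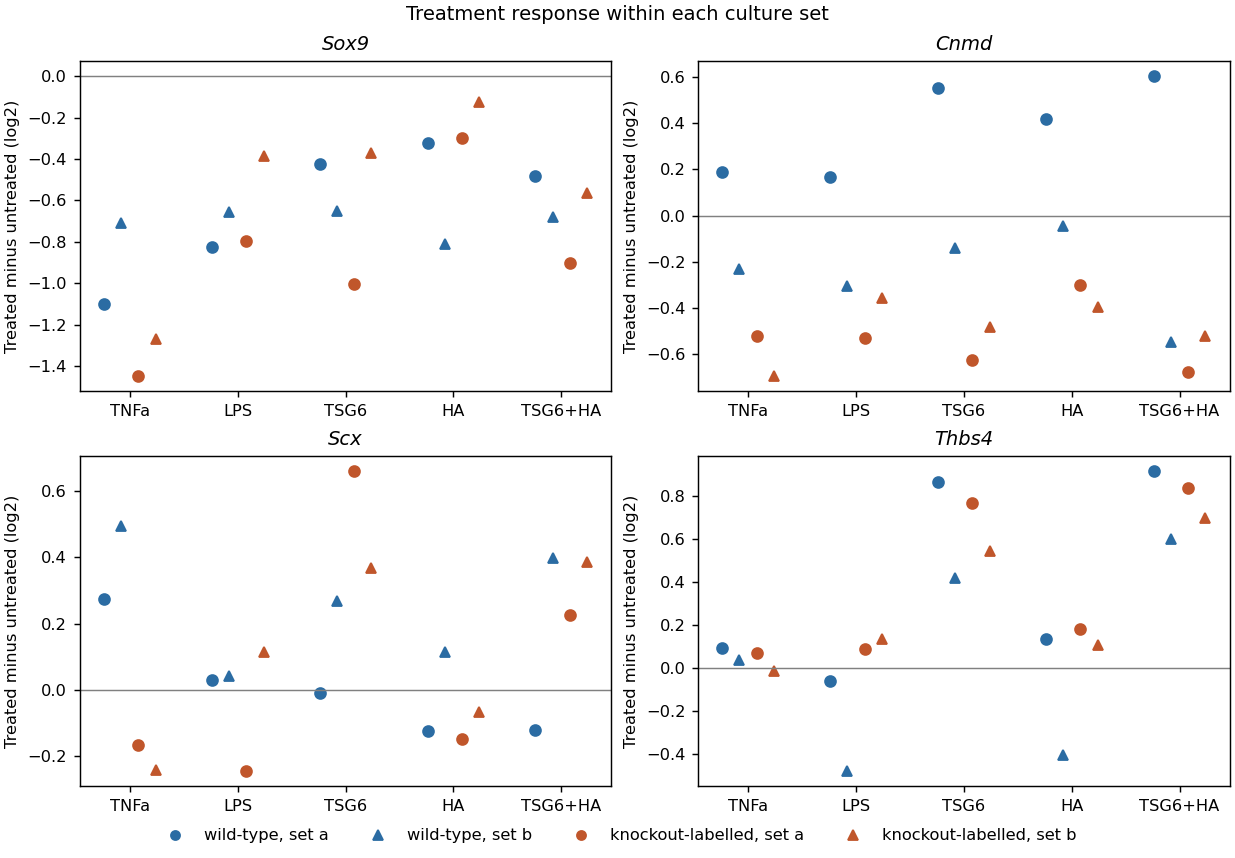
Treated minus untreated means (log2) within each of the 4 culture sets, for Sox9, Cnmd, Scx and Thbs4; blue is wild-type, orange knockout-labelled, circles set a and triangles set b. All Sox9 points are below 0, all knockout-labelled Cnmd points are below 0, and all Thbs4 points after TSG6 or TSG6 with HA are above 0.

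The difference between the genotypes' responses was tested for each treatment as an interaction, and 0 of the 9 genes passed for any of the 5. Of all genes, 0.808% passed for TNFa, 0.214% for LPS, 0.0824% for TSG6, 0.0440% for HA and 0.181% for TSG6 with HA. In this fit no member had an unadjusted p under 0.05 either. With the sets as a fixed block no member passed, where 2.21% of all genes did for TNFa and 0.478% for TSG6. There the Cnmd interaction ran from -0.42 ± 0.26 (SE) for LPS to -0.82 ± 0.27 for TSG6 (adjusted p = 0.273 by limma). Scx was at -0.57 ± 0.21 for TNFa (adjusted p = 0.208 by limma). Each treatment is compared with the same untreated arrays of its genotype, so the 5 comparisons of a genotype share their controls.

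Within each genotype Tnmd varied mainly between the culture sets, and no difference between genotypes or after treatment passed. It was between 1.59 and 2.01 on the 13 arrays of knockout-labelled set b and between -1.21 and -0.02 on the 14 arrays of set a. Wild-type set a ran from 0.02 to 0.51 and wild-type set b from -0.67 to -0.09. Knockout-labelled set b was thus above all other arrays, while set a overlapped the wild-type arrays. The culture sets held 92.8% of the sum of squares of Tnmd among knockout-labelled arrays and the treatments 1.79%. The genotype difference in untreated cells was 0.55 ± 0.65 (SE; 95% interval -0.78 to 1.88) and did not pass (adjusted p = 0.587 by limma).

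Set a of the knockout-labelled arrays was itself uneven. Untreated arrays 1 and 2 had Tnmd values of -0.02 and -0.03, and untreated arrays 3 and 4 had -1.09 and -0.90. The first array of each treatment lay between -0.56 and -0.11 and the second between -1.21 and -0.96. Thbs4 showed the same division, with 0.02 and 0.01 on untreated arrays 1 and 2 and -0.91 and -0.99 on untreated arrays 3 and 4.

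The other genes divided between sets in different ways. Thbs4 was lower in knockout-labelled set a (mean -0.19) than in set b (1.23), whereas Cnmd was higher in set a (1.52) than in set b (0.13), and so was Scx (0.48 and 0.01). Among wild-type arrays, Comp and Thbs4 were both higher in set a (means -3.30 and -2.98) than in set b (-5.03 and -5.31). Cnmd differed little there (-5.07 and -4.85). For Sox9 the treatments held 77.3% of the sum of squares among wild-type and 77.5% among knockout-labelled arrays, and the sets 5.31% and 5.02%. These values describe sets found in these data, and no test was made of them.

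**Figure D5:**
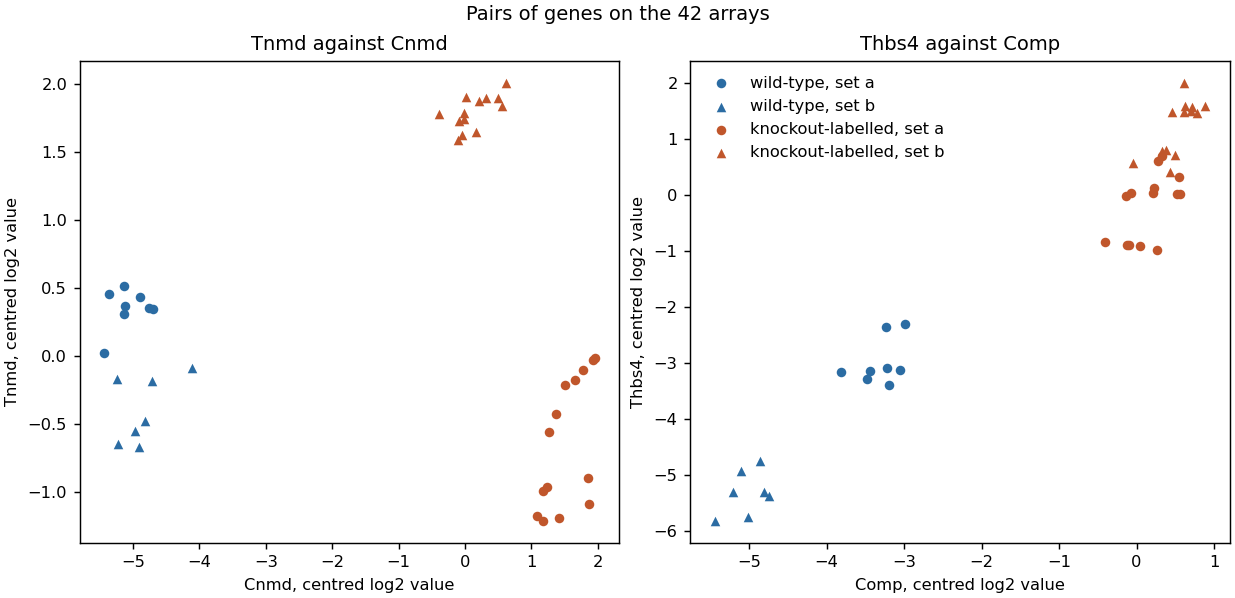
Centred log2 values of Tnmd against Cnmd (left) and Thbs4 against Comp (right) on the 42 arrays; blue is wild-type, orange knockout-labelled, circles set a and triangles set b. The knockout-labelled sets lie apart in both Cnmd and Tnmd, in opposite order, while wild-type set b is the lowest for both Comp and Thbs4.

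The genes with the nearest pattern to each member were found by Pearson's r over the 42 arrays, which for most members mainly carries the split between genotypes. Cnmd was most like Bnc1 (0.982), Mia (0.979) and S100b (0.977). Comp was most like Hpgd (0.991), Rbp4 (0.99) and Clu (0.989), and Thbs4 like Egfl6 (0.978), Vkorc1 (0.976) and Rcn3 (0.973). Sox9 was most like Slc27a3 (0.953), Mab21l1 (0.951) and Hoxc10 (0.949). Scx was nearest to Gm2115 (0.861), Nt5e (0.844) and Hapln1 (0.838), and Tnmd to Gm3912 (0.914), Il33 (0.902) and Gm45351 (0.888). The best match reached 0.742 for Matn2, 0.73 for Chad and 0.586 for Acan.

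Other genes of cartilage and tendon were taken in lists, whose counts in untreated cells stand against the 37.5% of all genes that passed between the genotypes. In untreated cells, 8 of 22 cartilage matrix genes were higher in knockout-labelled cultures and 0 lower, a share near that of all genes, with a median difference of 0.07 over the list. They included Prg4 (4.41), the collagen-binding Fmod (2.38), Col11a1 (1.29), a chain of cartilage collagen, and Matn4 (0.99). Of 19 chondrogenic regulators 8 were higher and 2 lower, with Sox6 (2.78) and Sox5 (2.29), the partners of SOX9, Foxc1 (1.94) and Mef2c (-1.88) among them. All of the 8 called among 10 relatives of thrombospondins, matrilins and Chad were higher (list median 0.76), such as Thbs3 (0.77), Prelp (1.69) and Chadl (0.65).

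Tendon genes divided evenly, with 10 of 24 higher and 10 lower (list median -0.14). Mkx, a tendon transcription factor, was 2.01 higher, whereas Tnc (-2.59), Col6a3 (-1.36) and Eya1 (-1.23) were lower. Of 26 growth signals of cartilage and tendon 11 were higher and 5 lower, with the BMP antagonist Chrdl1 at 4.95 and Bmp4 at -2.38. Matrix-degrading enzymes and their inhibitors had 10 of 16 higher and 4 lower (list median 0.66): Mmp13, the collagenase of cartilage, was 2.75 higher, while Adamts12 (-2.85), Adamts9 (-2.67) and the aggrecanase Adamts4 (-1.09) were lower. Of 9 osteoblast genes 2 were higher and 2 lower, and of 7 enzymes of proteoglycan synthesis 3 were higher and 0 lower, shares not far from the 37.5% of all genes.

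After TNFa in knockout-labelled cells, where 14.0% of all genes passed, 1 of the 22 cartilage matrix genes rose and 1 fell, Col11a1 by 1.21. Of the 19 regulators 1 rose and 3 fell, among them Foxc1 by 0.66. Among the 10 thrombospondin and matrilin relatives 3 fell (Thbs2 by 2.02, Thbs1 by 1.37 and Omd by 1.98) and 0 rose, and among the 24 tendon genes 6 fell and 0 rose, including Mkx (-0.58) and Aspn (-2.19). The aggrecanase Adamts4 rose by 2.12 and Mmp9, a gelatinase, by 3.15, with 4 of 16 genes of matrix breakdown higher and 1, Timp3 (-1.38), lower. Growth signals went in both directions, 5 higher and 6 lower, with Bmp2 at 2.08 and Bmp4 at -2.004.

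Wild-type cells after TNFa also had lower Col11a1 (-0.97), Foxc1 (-1.01) and Thbs2 (-1.29), and higher Mmp9 (2.26) and Adamts4 (0.77). The response differed between genotypes by the interaction test for Bmp2 (1.76, adjusted p = 3.42e-05 by limma), Adamts4 (1.35, adjusted p = 0.00435), Bmp4 (-1.51, adjusted p = 0.0309), Nog (0.62, adjusted p = 0.0309) and Adamts7 (-0.87, adjusted p = 0.0337), but for no other gene of these lists.

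TSG6 raised 3 of the 22 cartilage matrix genes in knockout-labelled cells and lowered 0, where 4.75% of all genes passed. These were the hyaluronan-binding Vcan (1.52) and Hapln1 (1.46), and Prg4 (0.96). After TSG6 with HA the same 3 rose, by 1.57, 0.91 and 1.07, where 9.91% of all genes passed. Of the 24 tendon genes 3 rose and 3 fell after TSG6, and 4 rose and 3 fell after TSG6 with HA. Among them the collagen gene Col3a1 rose by 1.17 and 1.36 and Col5a2 by 0.95 and 0.96, after TSG6 and after TSG6 with HA. Egr1, a tendon and immediate-early transcription factor of the same list, fell by 0.85 and 1.09. In knockout-labelled cells Egr1 was also lower after LPS (-1.285) and after HA alone (-1.047), so its fall was not particular to TSG6. In wild-type cells Prg4 rose after TSG6 (1.21) and after TSG6 with HA (1.35). LPS and HA called 0 of the 22 cartilage matrix genes in knockout-labelled cells, against 1.79% and 0.643% of all genes.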

How the data were processed

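The authors deposited log2 values of 45101 Affymetrix probe sets on 42 arrays, made with RMA per the submitters' processing notes; in the file each probe set has a median of 0 over the arrays, and base 2 was inferred. A single gene was given for 34958 probe sets, more than 1 for 932 and no gene for 9211, and 34754 were matched to current symbols by gene number. For a gene with several, the probe set of largest SD was used, passing over those that followed 18S RNA (r above 0.7). A mean was fitted for each of the 12 groups to 18195 genes with limma 3.58.1 in R 4.3.3 (30 residual degrees of freedom), and p-values were adjusted by Benjamini-Hochberg within each of 21 comparisons, threshold 0.05. The fit was tested on simulated data. Values are not counts, so depth does not apply, and the number of arrays limits precision. RMA fits each probe set over all arrays and compresses differences near background, and centring removes levels. The members and lists were chosen with earlier results of these data known. From each list the called genes of smallest p, at most 4 a comparison, were named; from each marker list likewise. The genes most alike were the 3 of highest Pearson's r. Alternatives were other probe sets, quantile normalization, fewer groups, replicate and set blocks, and leaving out arrays. Quantile normalization was run on the centred values, so it gave every array the same distribution of deviations from the probe set medians. It took the genes called after TNFa in wild-type cells from 466 to 77.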

Additional observations from a re-analysis of the deposited data

Results flagged for a closer look

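Of 54 combinations of a gene and a group of 4 to 10 arrays that were screened for an array standing apart, 1 met Dixon's 95% limit, where chance gives about 1 in 20. Cnmd was at -4.108 on untreated wild-type array 5, while the other 4 untreated wild-type arrays lay between -5.433 and -5.13. The gap to the nearest array was 0.771 of the group's range, against a limit of 0.71. This array was also among the 14 with a high 18S signal (1.28), and the part of that signal in the value was not tested. Without it the Cnmd difference between genotypes in untreated cells was 6.47, against 6.24 with all arrays.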

How the results depend on the processing

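Of 693 single-gene values recomputed under the alternatives, 640 kept their direction and their side of the threshold, 33 lost the call, 19 gained one and 1 turned. The one that turned was the uncalled Cnmd response to TSG6 in knockout-labelled cells, -0.34 with all arrays and between -0.60 and 0.09 with arrays left out singly, the highest without the third TSG6 array. The number of the 9 genes called moved as follows by more than 1.5 times, and the cause was not tested except that fewer groups or arrays leave a fit with less information. After TNFa in wild-type cells it was 1, and 0 with only the groups compared, quantile normalization or the replicate block. After LPS it was 0 in wild-type cells and 1 with the set block; in knockout-labelled cells it was 1, and 0 with the mean of probe sets, only the groups compared or without high 18S arrays, and 2 with the replicate block. In knockout-labelled cells it went from 1 to 2 after TNFa and from 1 to 3 after TSG6 with HA with the set or replicate block, from 0 to 1 after HA with the replicate block, and from 2 after TSG6 to 0 with only the groups compared and 1 without high 18S arrays. Between genotypes under TNFa it went from 4 to 2 with quantile normalization. Smaller moves were from 2 to 3 after TSG6 in knockout-labelled cells with the set block, and between genotypes from 5 to 4 in untreated cells with quantile normalization, from 5 to 4 under TSG6 with HA without high 18S arrays, and from 4 to 5 with the set block or the mean of probe sets under LPS and HA and with all probe sets or only the groups compared under LPS. Leaving out single arrays gave 0 to 1 for TNFa in wild-type cells, 0 to 1 for LPS and 0 to 2 for TSG6 in knockout-labelled cells, 3 to 4 between genotypes under TNFa, 4 to 5 under TSG6, HA and TSG6 with HA, and no move elsewhere.

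Replicate numbers did not pair the arrays: correlations of same-numbered deviations ran from -0.651 to 0.438 in wild-type and from -0.259 to 0.591 in knockout-labelled cells, and 0 of 10 and 5 of 19 treated arrays were most like their own number, the 5 being the first array of each treatment (0.416 to 0.591). With the replicate block Cnmd passed after all 5 treatments in knockout-labelled cells (-1.06 to -1.32) and in the interactions for TNFa (-1.59, adjusted p = 0.0239) and TSG6 with HA (-1.63, adjusted p = 0.0409), so those counts went from 0 to 1. Thbs4 passed after TSG6 with HA (1.52), and Scx lost its call after TSG6 (0.41, adjusted p = 0.273). Untreated knockout-labelled arrays 3 and 4 were in set a, whereas treated arrays numbered 3 and 4 were in set b. The replicate block thus also compared arrays of different sets. Within the knockout-labelled sets the Cnmd differences ran from -0.695 to -0.30. Those of Thbs4 after TSG6 with HA were 0.836 and 0.697. The calls with the replicate block are therefore not read as responses. A filter on dim probe sets was not run, since centred values hold no level; for the same reason signal over background is unknown.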
